A study of Homo sapiens with 5 samples.

Results

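The 10 genes followed here mark the epithelial and the mesenchymal state of carcinoma cells, and they were read in single SW480 cells from zebrafish xenografts. The epithelial members were CDH1, EPCAM, CLDN3, CLDN4, CLDN7 and TJP1, and the mesenchymal members were VIM, ZEB1, FLNA and ITGB1. All 10 symbols had 1 row in each of the 5 count tables, and they are 10 of the 15028 genes kept. The question was whether VIM was higher together with the other mesenchymal genes or alone, with the epithelial genes in place, in each plate and in each cell. The members were chosen by their measured values in these same libraries, among them the difference of VIM between the time points, so their values by time are a description and carry no test.

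SW480 is an established human line from a primary colorectal cancer, used here as parental cells that carried GFP from a lentiviral vector. The cells were injected into zebrafish embryos, and tumors were dissected at 1 or 4 days post injection (dpi), dissociated and sorted by FACS into 384-well plates for SORT-seq, in which every molecule receives a well barcode and a unique molecular identifier (UMI). Libraries 6, 7 and 8 were plates of 1 dpi and libraries 10 and 11 were plates of 4 dpi, with the same cell line and host in both groups. Tumors were pooled before dissociation, so a plate is no single animal, and no source says if plates of the same day hold cells of different pools. The p-values of the time points then measure only the spread between plates, which may be technical. Where classes of cells were compared within plates, they measure only how the ratio of the classes varied between plates. Of 1920 wells, 826 held over 2000 genes and had a mitochondrial share under 25% and were analyzed, with 228, 142 and 163 cells at 1 dpi and 132 and 161 at 4 dpi.

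Epithelial cells are held together by adherens junctions, tight junctions and desmosomes. In an epithelial-mesenchymal transition, transcription factors of the SNAI, ZEB and TWIST families repress junction genes such as CDH1, while the cell gains vimentin filaments, matrix proteins and contractile actin fibers. Many carcinoma cells show only part of this program, with vimentin and epithelial junction proteins in the same cell.

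The passing cells of a library held between 3789632 and 7503665 human UMIs, and the median cell held 30874, 36197 and 25938 UMIs at 1 dpi and 26120 and 18823 at 4 dpi. Cells of 4 dpi were thus shallower in library 11, and shares of cells are therefore also given after each cell was thinned to 5000 UMIs. The label was checked against defining markers. The 10 colorectal epithelial markers summed to between 3374 and 4591 CPM (UMIs scaled to counts-per-million of the library) in every library, with KRT8 as the leading gene, although CDX1 had a single UMI in all. Of the 8 fibroblast markers, COL1A2 and THY1 had no UMI, and most of the summed level of 23.3 to 27.4 CPM at 1 dpi and 33.2 and 44.7 at 4 dpi was LUM. The 8 leukocyte markers summed to 8.37 to 10.4 CPM at 1 dpi and to 5.01 and 6.31 at 4 dpi, without a UMI of AIF1, CD3E or MS4A1. The 6 endothelial markers summed to between 1.49 and 2.27, without a UMI of CDH5 or CLDN5.

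The members lie on 6 autosomes and on the X chromosome of the human genome (GRCh38, GENCODE annotation). VIM is on chromosome 10 at 17228241 to 17237593 on the plus strand, and its first 1778 bases overlap the antisense RNA VIM-AS1. Whether the counting used strand is not stated, and VIM-AS1 itself had 8, 3 and 3 UMIs at 1 dpi and 10 and 9 at 4 dpi. ZEB1 (31318495 to 31529814, plus strand) and ITGB1 (32887273 to 33005792, minus strand) are on the same chromosome, 14.08 Mb and further from VIM. CLDN3 (73768997 to 73770270, minus strand) and CLDN4 (73799542 to 73832690, plus strand) are neighbors on chromosome 7, separated by 29.3 kb. The other members are EPCAM on chromosome 2 (47345158 to 47387601, plus strand), TJP1 on chromosome 15 (29699367 to 29968915, minus strand), CDH1 on chromosome 16 (68737292 to 68835537, plus strand), CLDN7 on chromosome 17 (7259903 to 7263983, minus strand) and FLNA on the X chromosome (154348524 to 154374634, minus strand).

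The bases upstream of the start site are shown for VIM, the member with the largest difference between time points, and for 3 claudins, because the neighbors CLDN3 and CLDN4 differed in their values with time and CLDN7 has the E-box that SNAI and ZEB factors are known to bind. The 250 bases before the start (RefSeq, GRCh38.p14, strand of the gene) were searched on both strands for the E-box CAGGTG, which reads CACCTG on the other strand, and for TGANTCA, which holds the AP-1 motif and reads as itself. Matches of either motif are in capitals, and the motifs did not overlap.
VIM, chr10:17227991-17228240, plus strand: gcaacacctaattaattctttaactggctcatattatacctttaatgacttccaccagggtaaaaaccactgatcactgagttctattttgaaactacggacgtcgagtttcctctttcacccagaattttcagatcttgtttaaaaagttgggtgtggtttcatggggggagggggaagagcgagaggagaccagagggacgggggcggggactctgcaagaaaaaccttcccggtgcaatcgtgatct
CLDN3, chr7:73770271-73770520, minus strand: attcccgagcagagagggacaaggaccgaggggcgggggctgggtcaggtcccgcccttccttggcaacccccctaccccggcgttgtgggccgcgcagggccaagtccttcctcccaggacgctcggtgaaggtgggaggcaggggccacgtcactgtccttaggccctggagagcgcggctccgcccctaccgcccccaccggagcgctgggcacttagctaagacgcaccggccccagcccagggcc
CLDN4, chr7:73830746-73830995, plus strand: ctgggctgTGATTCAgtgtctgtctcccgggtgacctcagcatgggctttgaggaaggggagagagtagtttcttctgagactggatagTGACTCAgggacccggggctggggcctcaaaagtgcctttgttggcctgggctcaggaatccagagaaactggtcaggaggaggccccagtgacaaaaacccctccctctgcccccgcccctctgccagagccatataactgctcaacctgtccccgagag
CLDN7, second start, chr17:7262479-7262728, minus strand: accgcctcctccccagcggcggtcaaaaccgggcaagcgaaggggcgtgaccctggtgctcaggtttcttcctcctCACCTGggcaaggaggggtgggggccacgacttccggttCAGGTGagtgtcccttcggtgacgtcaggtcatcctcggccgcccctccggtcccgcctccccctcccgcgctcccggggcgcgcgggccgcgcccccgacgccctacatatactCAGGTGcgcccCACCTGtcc
The table used held starts of 8 of the 10 members, 19 in all, and none of CDH1 or EPCAM. The E-box was within 4 of these starts, from 3 members (CLDN7, TJP1 and ZEB1), against 17.5% of all 35116 starts of the same length. CLDN7 had it 4 times before its second start and not before its first. TGANTCA stood at 2 places before CLDN4 and before no other member, against 6.57% of all starts. Neither motif was in the windows of VIM or CLDN3. These are matches of letters, and binding was not measured.

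VIM, the intermediate filament protein of mesenchymal cells, had 17.8, 23.0 and 19.1 normalized CPM in the plates of 1 dpi (6, 7 and 8, in this order) and 87.6 and 106 in those of 4 dpi (10 and 11). Both libraries of 4 dpi were above all 3 of 1 dpi, at a mean of 20.0 ± 2.69 (SD, n = 3) against 96.8 ± 13.0 (SD, n = 2). The fitted log2 difference was 2.28 (SE 0.14), or 4.87-fold. The names of the deposited count tables hold a code shared by libraries 6, 7 and 10 and another shared by 8 and 11. This code was taken as the flow cell, which the sample titles do not give. The log2 difference was 2.10 within the first flow cell (libraries 6, 7 and 10) and 2.47 within the second (libraries 8 and 11). The summed fibroblast markers were higher at 4 dpi as well (33.2 and 44.7 against 23.3 to 27.4 CPM), with COL1A2 and THY1 at 0, and their part in the difference was not tested. In bulk sums, more cells with the RNA and more RNA per cell cannot be told apart, and the values per cell are given below.

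ZEB1, a zinc finger repressor of junction genes, had 13.5, 10.8 and 19.5 normalized CPM at 1 dpi and 11.8 and 16.4 at 4 dpi, so that the values of 4 dpi lay inside those of 1 dpi. Its log2 difference was -0.04 (SE 0.25), and its sign turned in 3 of the 11 other settings in which it was tested. FLNA, which crosslinks actin filaments, had 233, 282 and 311 at 1 dpi and 199 and 241 at 4 dpi, with overlapping groups and a log2 difference of -0.32 (SE 0.12). It was -0.37 within each flow cell and -0.37 with the flow cell as a term in the fit, which moved it past the threshold used for calls. ITGB1, the beta subunit of most matrix-binding integrins, had 295, 334 and 298 at 1 dpi and 291 and 294 at 4 dpi, with a log2 difference of -0.08 (SE 0.09) and values at 4 dpi just below all of 1 dpi. The 3 mesenchymal members other than VIM thus differed by between -0.32 and -0.04, with a median of -0.08.

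Among the epithelial members, CDH1, the cadherin of adherens junctions, had 51.0, 80.1 and 57.1 normalized CPM at 1 dpi and 34.2 and 40.9 at 4 dpi. All values of 4 dpi were below those of 1 dpi, and the log2 difference was -0.73 (SE 0.18). TJP1, the scaffold that anchors tight junction strands to actin, had 95.9, 139 and 116 at 1 dpi and 69.7 and 63.0 at 4 dpi, with no overlap and a log2 difference of -0.81 (SE 0.14). These members were lower within both flow cells, CDH1 by -0.94 and -0.48 and TJP1 by -0.76 and -0.88 on the log2 scale.

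EPCAM, a surface adhesion protein of epithelia, had 1172, 1244 and 1169 normalized CPM at 1 dpi and 1521 and 1322 at 4 dpi. Its log2 difference of 0.25 (SE 0.09) was small, but the groups did not overlap. CLDN3, a sealing claudin of tight junctions, had 24.9, 32.1 and 22.5 at 1 dpi and 44.3 and 43.5 at 4 dpi, with a log2 difference of 0.73 (SE 0.16) and no overlap. After each cell was thinned to 5000 UMIs, which gives every cell the same weight, the difference of CLDN3 was 0.28. The other claudins had overlapping values. CLDN4 was at 123, 237 and 176 against 183 and 159 (log2 -0.06, SE 0.18), and CLDN7 was at 155, 189 and 204 against 182 and 169 (log2 -0.05, SE 0.11). The epithelial members thus did not move as a group: their median difference was -0.06, with 2 higher, 2 lower and 2 near 0.

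**Figure D1:**
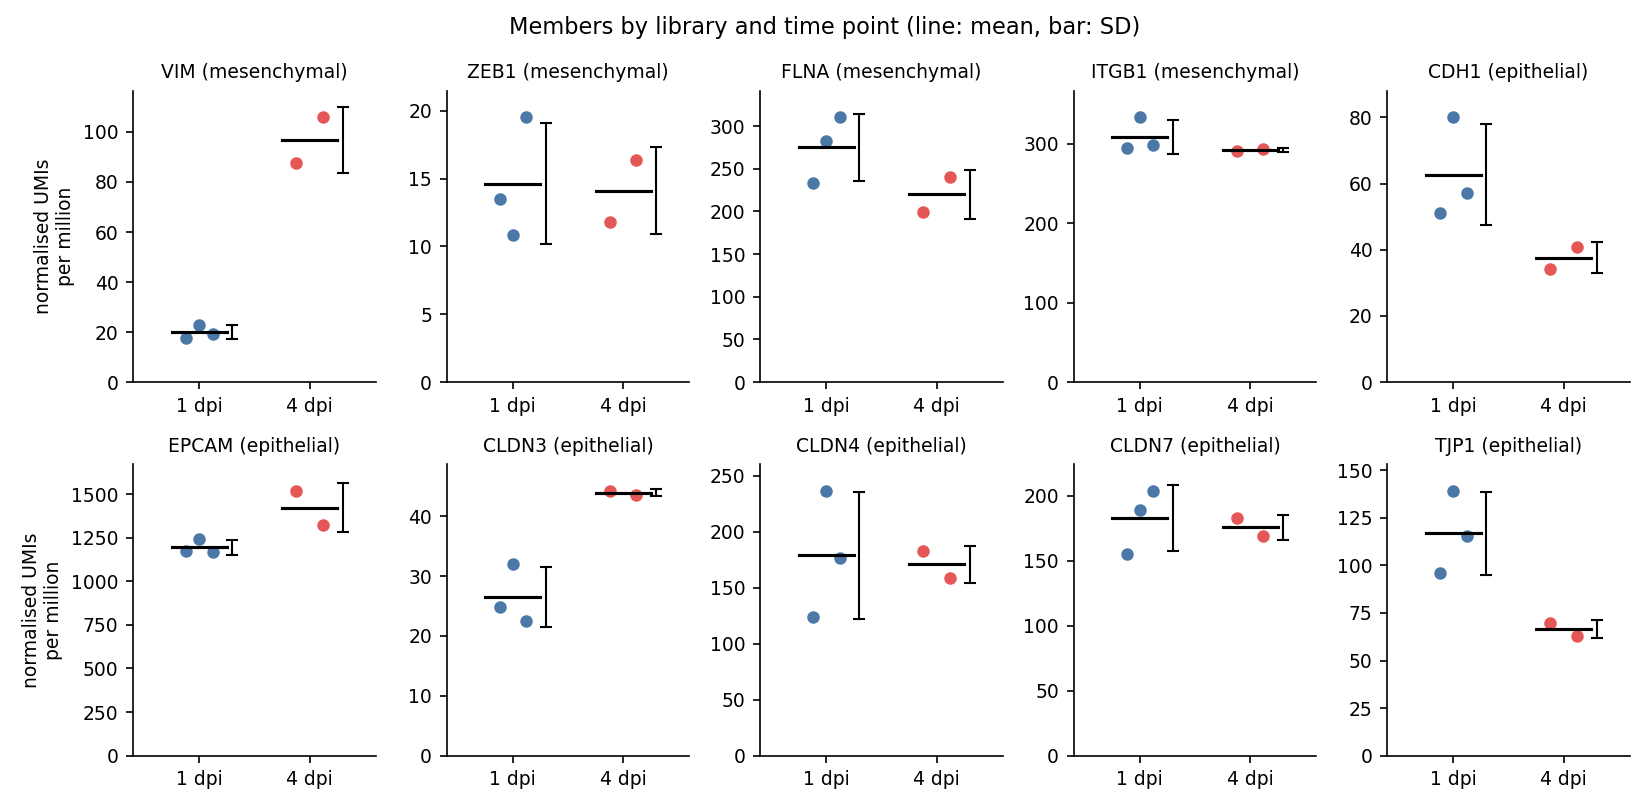
Normalized CPM (y axis, from 0) of each member in each library of 1 dpi (blue, 3 libraries) and 4 dpi (red, 2 libraries); lines are means and bars are SDs. VIM is the mesenchymal member whose values at 4 dpi (87.6 and 106) stand far above those at 1 dpi (17.8 to 23.0), while CDH1 and TJP1 are lower, EPCAM and CLDN3 higher and the other members near their values at 1 dpi.

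In the fit over all 12610 genes tested (edgeR quasi-likelihood test, Benjamini-Hochberg adjustment, threshold 0.05), 13.4% of genes were called higher at 4 dpi and 14.2% lower, and the median difference of all genes was 0.00. By the same rule, 3 members would be called higher (VIM, EPCAM and CLDN3) and 2 lower (CDH1 and TJP1), but the members were chosen on this contrast and nothing is read from these counts. The values of the groups were separate for 6 of the 10 members, and for 54.7% of all genes tested. The call of EPCAM was lost in 7 of the 12 other settings and that of CLDN3 in 1.

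The wider lists, also written with earlier results of these data known, gave the other genes of the program. Of 12 transcription factors of the transition other than ZEB1, 5 were not kept: TWIST1 and ZEB2 had 1 UMI each in all passing cells, TWIST2 had 2, GSC had 3 and FOXC2 had no row. Of the 7 tested, 2 were called higher and 2 lower, against 13.4% and 14.2% of all genes tested. TCF4, a basic helix-loop-helix factor, rose from 0.27, 0.76 and 0.21 normalized CPM at 1 dpi to 4.78 and 2.86 at 4 dpi (log2 3.18, SE 0.59, adjusted p = 0.00108, edgeR). This rests on few UMIs, with 2, 4 and 1 at 1 dpi and 19 and 11 at 4 dpi. KLF8 rose by 0.86 (SE 0.30, adjusted p = 0.0451, edgeR). SNAI1, the Snail repressor of CDH1, fell from 26.1, 32.5 and 33.2 to 14.6 and 19.0 (log2 -0.85, SE 0.18, adjusted p = 0.00305, edgeR), and SNAI2, known as Slug, fell from 90.2, 81.8 and 90.5 to 63.9 and 70.8 (log2 -0.38, SE 0.11, adjusted p = 0.0207, edgeR). The values of each of these 4 genes did not overlap between the time points.

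Of 35 mesenchymal and matrix genes, only 19 were kept and 18 tested. Several genes that are most often used to define this state had few UMIs: over all passing cells CDH2, which encodes N-cadherin, had 3 UMIs, FN1 (fibronectin) had 10, SPARC had 2, ACTA2 (smooth muscle actin) had 2 and POSTN had none. These genes are named for their role and were looked up after other values had been seen. Other genes of the list had many UMIs, such as S100A4 with 11027, LGALS1 with 7654 and TAGLN2 with 3083. With time S100A4 fell (log2 -1.01, SE 0.16), TAGLN2 rose (log2 0.41, SE 0.12) and LGALS1 was not called (log2 -0.18). Of the 18 genes of the list that were tested, 4 were called higher and 6 lower, against 13.4% and 14.2% of all genes. The median log2 difference of the list was -0.34 against 0.00 over all genes. COL1A1, a chain of type I collagen that is also on the fibroblast list, rose from 1.47, 4.18 and 2.73 normalized CPM to 16.6 and 7.03 (log2 2.14, SE 0.41). CD44, the hyaluronan receptor, rose by 0.65 (SE 0.15) and TGFBI, a matrix adhesion protein, by 0.63 (SE 0.17). The contractile genes MYL9 (log2 -2.02, SE 0.53) and TAGLN (log2 -1.21, SE 0.35) fell, as did COL6A1 (log2 -1.62, SE 0.35). TAGLN was at 24.5, 33.2 and 17.2 at 1 dpi and 4.78 and 16.9 at 4 dpi, so that library 11 lay just below library 8, and its difference was -2.59 within the first flow cell and -0.03 within the second.

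All but 1 of the 32 integrins and actin linkers were tested, with a median of -0.23. Of these, 3 were called higher and 10 lower, against 13.4% and 14.2% of all genes. VCL (vinculin, log2 -0.98, SE 0.11), ZYX (zyxin, log2 -0.92, SE 0.13) and ITGB8 (log2 -1.04, SE 0.23) fell the most of those whose libraries did not overlap, and the first of these, a linker of integrins to actin, was at 201, 231 and 203 normalized CPM at 1 dpi and at 103 and 112 at 4 dpi. PARVA (parvin alpha, log2 0.49, SE 0.10), TLN1 (talin, log2 0.42, SE 0.12) and CFL1 (cofilin, log2 0.28, SE 0.08) rose. FLNA and ITGB1 were thus read beside a list with more falls than rises.

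Of 33 further epithelial junction genes, 28 were tested, with a median of -0.11. Of these, 4 were called higher and 5 lower, near the 13.4% and 14.2% of all genes tested. OCLN, the tight junction protein occludin, fell from 102, 130 and 110 normalized CPM to 49.8 and 52.1 (log2 -1.16, SE 0.13), next to MARVELD2 (log2 -0.60, SE 0.21) and CGN (cingulin, log2 -0.60, SE 0.21). CLDN1 rose from 109, 123 and 102 to 194 and 156 (log2 0.65, SE 0.11), next to DSC2 (desmocollin 2, log2 0.82, SE 0.16) and MARVELD3 (log2 0.83, SE 0.25). Of 25 epithelial regulators, 21 were tested, 6 were called higher and 4 lower, with a median of -0.14. EHF (log2 0.83, SE 0.19), ERBB3 (log2 0.65, SE 0.14) and TMEM30B (log2 0.56, SE 0.16) rose, and ELF3 (log2 -0.70, SE 0.16), ST14 (matriptase, log2 -0.57, SE 0.19) and LLGL2 (log2 -0.41, SE 0.11) fell. Both epithelial lists thus held rises and falls in similar number, as did all genes tested, and nothing further is read from these counts.

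**Figure D2:**
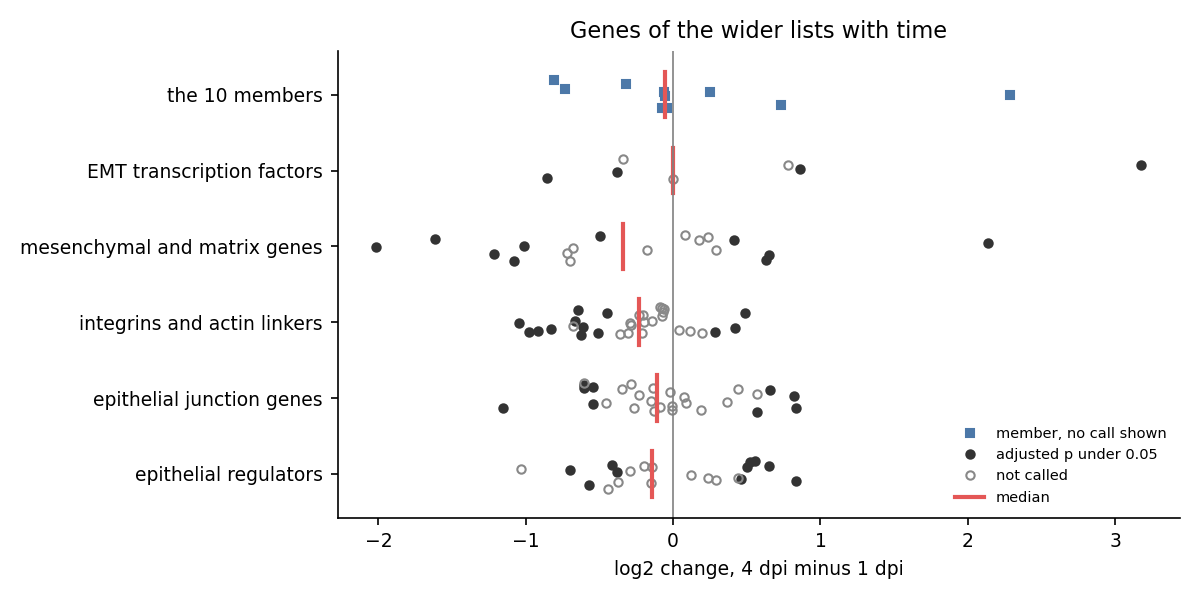
Log2 difference of 4 dpi minus 1 dpi (x axis) for the 10 members (blue squares) and for the tested genes of 5 wider lists; filled points are genes with an adjusted p under 0.05, open points are genes that were not called, and red lines are medians. The medians lie between -0.34 and 0.00, and genes stand on both sides of 0 in each list.

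In single cells, VIM was found in a minority of cells and unevenly. Before thinning, a VIM UMI was seen in 17.5%, 23.9% and 14.7% of cells at 1 dpi and in 43.2% and 34.8% at 4 dpi. In cells thinned to 5000 UMIs the shares were 7.52% (17 of 226 cells), 6.43% (9 of 140) and 4.38% (7 of 160) at 1 dpi and 21.5% (28 of 130) and 22.0% (35 of 159) at 4 dpi. The exact binomial intervals (95%, counting error only) were 4.44% to 11.8%, 2.98% to 11.9% and 1.78% to 8.81% at 1 dpi and 14.8% to 29.6% and 15.8% to 29.3% at 4 dpi. Wells with under 200 genes served as a look at free RNA. These 487 wells held 1 VIM UMI among 58374 UMIs in all (median 101 per well), which is 17.1 CPM, near the 17.7 to 22.5 CPM of the cells of 1 dpi before normalization. This level rests on 1 UMI, and the part of free RNA in the cells with few VIM UMIs was not tested.

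Before thinning, cells with any VIM UMI held on average 3.33, 3.56 and 3.79 VIM UMIs at 1 dpi and 6.11 and 7.27 at 4 dpi. Cells with 10 or more numbered 2, 3 and 2 at 1 dpi and 9 and 11 at 4 dpi, and the highest cell of a library held 30, 34, 32, 34 and 66 in libraries 6, 7, 8, 10 and 11. Cells with many VIM UMIs were thus present at both time points and more numerous at 4 dpi. At the equal depth of 5000 UMIs, cells with VIM held on average 1.71, 1.67 and 1.43 VIM UMIs at 1 dpi and 1.46 and 2.54 at 4 dpi, so that library 11 was above the plates of 1 dpi and library 10 lay among them. The top 5% of cells held 73.7%, 73.6% and 83.5% of the VIM UMIs of a library at 1 dpi and 47.4% and 63.1% at 4 dpi.

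**Figure D3:**
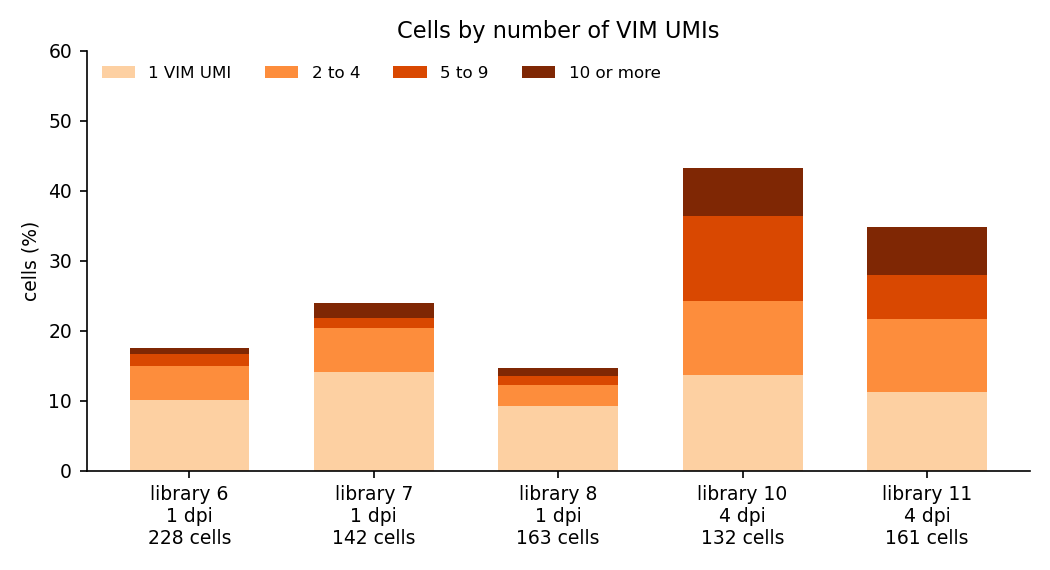
Share of passing cells (y axis, in percent, before thinning) with 1, 2 to 4, 5 to 9 and 10 or more VIM UMIs in each library (x axis, with the time point and the number of cells). Stacks of 1 dpi reach 14.7% to 23.9%, and those of 4 dpi reach 43.2% and 34.8% with more of the dark classes.

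The thinned shares of the other members followed their sums for CDH1 and TJP1 and less so for others. A ZEB1 UMI was seen in 4.87%, 4.29% and 6.25% of cells at 1 dpi and in 4.62% and 9.43% at 4 dpi, near the level at which 1 UMI per cell decides. TJP1 was seen in 35.0%, 39.3% and 39.4% against 26.2% and 23.9%, and CDH1 in 22.6%, 25% and 20.6% against 14.6% and 15.7%, and neither gene's values overlapped between the time points. EPCAM was seen in at least 98.7% of thinned cells of every library. CLDN3 was seen in 12.8%, 16.4% and 10.6% against 15.4% and 18.9%, with overlap. FLNA was seen in 62.4%, 66.4% and 75.6% against 58.5% and 59.1%, which lay below all plates of 1 dpi. The shares of ITGB1 (66.0% to 77.9%), CLDN4 (35.0% to 41.5%) and CLDN7 (51.6% to 65.0%) had the ranges given over all 5 libraries.

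The cells with VIM also held epithelial RNA. Among thinned cells, 32 of 33 cells with a VIM UMI at 1 dpi and 63 of 63 at 4 dpi also had a UMI of an epithelial member. In cells without VIM these were 493 of 493 and 225 of 226. Nearly every thinned cell had EPCAM, so this count could hardly differ between the classes. The median of the 6 epithelial members together was 8 UMIs in cells with VIM and 8 in cells without in library 6, 8 and 9 in library 7, 7 and 9 in library 8, 8.5 and 10 in library 10 and 9 and 8 in library 11, so that it was lower in cells with VIM in 3 of 5 libraries and higher in 1. The 3 cells of each library with the most VIM, 15 in all, held between 7 and 66 VIM UMIs and, before thinning, between 34 and 224 epithelial UMIs. All 15 had EPCAM (20 to 148 UMIs), 12 had CDH1 and 5 had ZEB1. Of all passing cells before thinning, 100% had EPCAM at both time points. CDH1 was in 53.7% at 1 dpi and 43.3% at 4 dpi, and ZEB1 in 30.0% and 22.2%. In the cell with 66 VIM UMIs, in library 11, there were 76 UMIs of EPCAM, 5 of CLDN4, 4 of CLDN3, 2 each of CDH1, CLDN7 and TJP1, 29 of FLNA and none of ZEB1.

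Whether other members followed VIM was tested on sums of cells with and without a VIM UMI after thinning, within libraries. This contrast is not the difference between the time points, but the members were chosen with earlier results of these same libraries known. It is therefore not shown to be independent of that choice. Thinning placed cells with VIM in both classes: 113 cells of 4 dpi had a VIM UMI before it and 63 after it. Before thinning, the class without VIM held 77 and 80 VIM UMIs in libraries 10 and 11, and the class with VIM held 269 and 327. The classes thus hold more and less VIM, and ratios near 0 between them do not show that VIM differed alone. Libraries 7 and 8 had only 9 and 7 cells with VIM, under the minimum of 10, so that 1 dpi rested on library 6 alone (17 cells) and 4 dpi on libraries 10 and 11 (28 and 35 cells), with 1 residual degree of freedom. At 4 dpi, 0 of the 9 other members were called (edgeR quasi-likelihood test; 1 had an unadjusted p under 0.05), and 0 with DESeq2. The background was 0.234% of 11979 genes called in this comparison, or 28 genes. ZEB1 was at 21.3 normalized CPM in cells with VIM and 8.82 in cells without in library 10, and at 27.2 and 13.8 in library 11. Its log2 ratio was 1.12 (95% interval 0.23 to 2.01), higher in 2 of 2 libraries, but the adjusted p was 0.813 (edgeR).

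The intervals of the remaining members all held 0. FLNA was at 242 in cells with VIM and 184 in cells without in library 10, and at 298 and 225 in library 11 (log2 0.40, 95% interval -0.16 to 0.95). ITGB1 had a log2 ratio of -0.14 (-0.70 to 0.42). The epithelial members had log2 ratios of -0.12 for CDH1 (-0.77 to 0.54), -0.17 for EPCAM (-0.84 to 0.49), -0.04 for CLDN3 (-0.69 to 0.62), 0.35 for CLDN4 (-0.20 to 0.89), 0.40 for CLDN7 (-0.14 to 0.94) and 0.35 for TJP1 (-0.23 to 0.92). Differences of up to about these bounds cannot be told from none at this number of cells. Cells with VIM at 4 dpi had a median mitochondrial share of 8.53% and 10.0% against 13.3% and 13.1% in cells without, and the part of this in the ratios was not tested.

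With classes made at 10000 UMIs, all 5 libraries had at least 10 cells with VIM. No member was called there either, but the ratios of 4 members at 4 dpi had an unadjusted p under 0.05 (edgeR), all above 0: FLNA (log2 0.73, 95% interval 0.30 to 1.16, adjusted p = 0.228), CDH1 (0.74, 0.19 to 1.30, adjusted p = 0.482), CLDN4 (0.69, 0.17 to 1.22, adjusted p = 0.482) and TJP1 (0.49, 0.01 to 0.96, adjusted p = 0.714). CDH1 was thus at or below the other cells with classes at 5000 UMIs and above them at 10000. At 1 dpi, with all 3 libraries at 10000 UMIs, 0 of 9 members were called (edgeR; 0 with an unadjusted p under 0.05). For the difference between the time points 0 were called there, and 3 (CDH1, CLDN4 and TJP1) had an unadjusted p under 0.05 (edgeR).

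With classes at 5000 UMIs, the values of 1 dpi come from library 6 and their spread from the plates of 4 dpi, so that library 6 is assumed to vary like those. There, 0 of 9 members were called (edgeR; 1, FLNA, had an unadjusted p under 0.05; DESeq2 0), where the background was 0.184% of genes. The difference between the time points was called for 0 of 9 (edgeR, 0 with an unadjusted p under 0.05; DESeq2 0), against 0.025% of all genes.

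**Figure D4:**
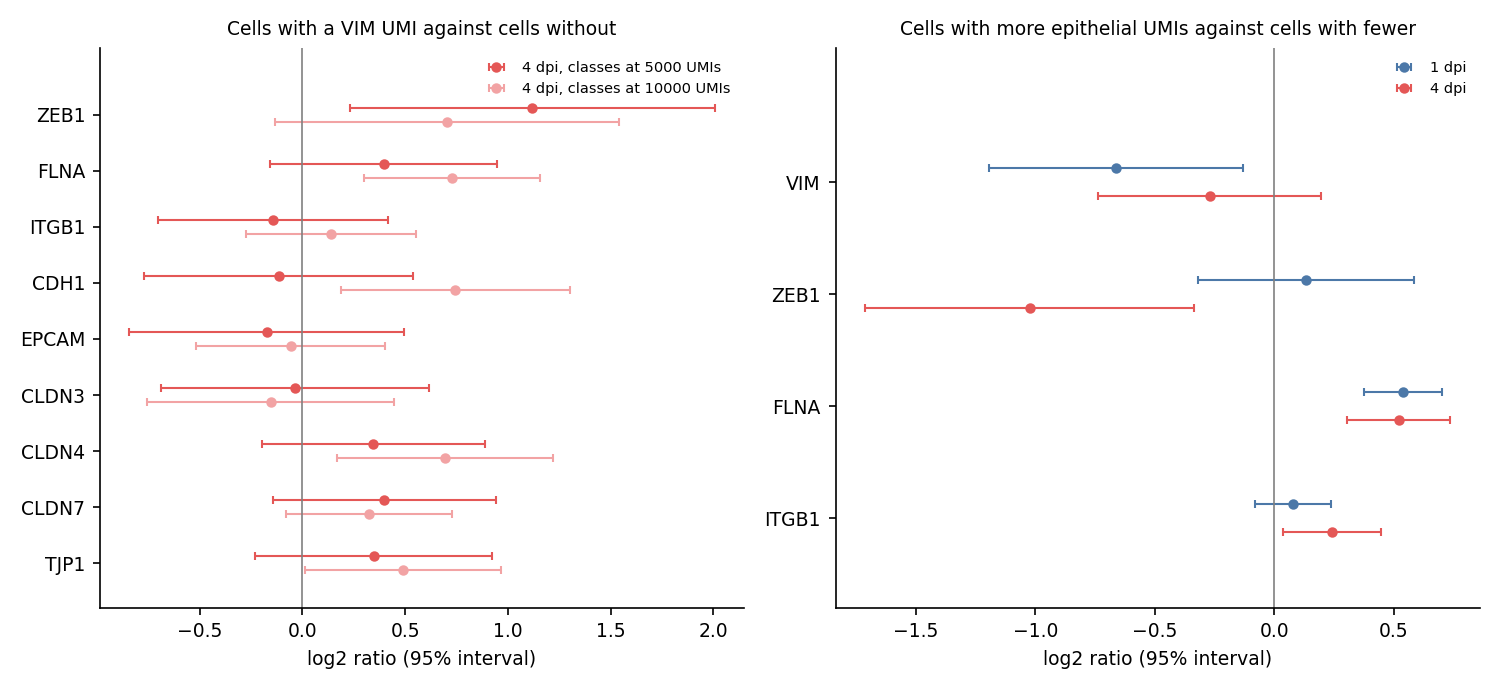
Left, log2 ratio (x axis, with the 95% interval) of each member in cells with a VIM UMI against cells without at 4 dpi, with classes made at 5000 UMIs (dark) and 10000 UMIs (light); right, log2 ratio of the mesenchymal members in cells with more epithelial UMIs against cells with fewer at 1 dpi (blue) and 4 dpi (red). All intervals on the left at 5000 UMIs hold 0 except that of ZEB1. On the right, the intervals of FLNA at both time points and of ITGB1 at 4 dpi lie above 0. Those of VIM at 1 dpi and of ZEB1 at 4 dpi lie below 0.

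Among all genes, 8 were called higher and 20 lower in cells with VIM at 4 dpi (edgeR). None of them was among the 100 tested genes of the wider lists (8 list genes had an unadjusted p under 0.05, edgeR; DESeq2 called 0). With 0.234% of all genes called, a list of this size would rarely hold a called gene, and nothing is read from this count. With classes at 10000 UMIs, 1 of 98 list genes was called and 13 had an unadjusted p under 0.05 (edgeR). Over all 11494 genes tested there, these were 31 and 772. The largest rises with the same direction in both libraries were ITPKA, an actin-bundling kinase (log2 2.77, SE 0.59), KRTAP2-3 (2.56, SE 0.62) and CDC42EP1, an effector of CDC42 (1.88, SE 0.32). The largest falls were CCL20, a chemokine (log2 -4.44, SE 0.62), KRT17, a keratin (-2.51, SE 0.46), and NR4A1, an immediate early nuclear receptor (-2.45, SE 0.41). CCL20 was at 1.07 and 2.72 normalized CPM in cells with VIM and at 40.2 and 40.0 in cells without. DESeq2 called none of these 6 genes, and with classes at 10000 UMIs CDC42EP1 (log2 1.36) and CCL20 (log2 -2.11) were called of the 5 that were tested, while KRT17 was at -0.28 and NR4A1 at -0.90. With unthinned classes KRT17 was at -0.68 and NR4A1 at -1.06.

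The reverse question was whether the mesenchymal members were lower in cells with more epithelial RNA. Cells of each library were split at the median of the summed thinned UMIs of the 6 epithelial members, which gave 51 to 98 cells above it and 73 to 128 at or below it. EPCAM gave most of these UMIs, at 1310 in library 6 and 997 in library 10, against 185 and 128 for CLDN7, the next. The split thus weighs EPCAM far more than the junction genes. At 4 dpi TJP1 was not higher in the cells above it in the sums of all UMIs. Before normalization it was at 69.7 against 70.3 CPM in library 10 and 60.8 against 66.2 in library 11, while the other epithelial members were higher there. With sums of thinned counts TJP1 was higher in both (62.75 against 53.16 and 73.85 against 55.32). So it was with classes at 10000 UMIs (71.71 against 69.36 and 71.21 against 54.78). These genes made the split, so their values only describe it. FLNA was higher in the cells with more epithelial UMIs at both time points. At 1 dpi it was at 282 against 197 normalized CPM in library 6, 332 against 234 in library 7 and 380 against 252 in library 8 (log2 0.54, SE 0.08, higher in 3 of 3 libraries, adjusted p = 0.000418, edgeR). At 4 dpi it was at 236 against 176 in library 10 and 309 against 201 in library 11 (log2 0.52, SE 0.11, higher in 2 of 2 libraries, adjusted p = 0.0013, edgeR). With classes at 10000 UMIs the ratios were 0.32 and 0.35 and were no longer called (adjusted p = 0.0627 and 0.0545, edgeR), with sums of thinned counts it was 0.33 at 4 dpi (adjusted p = 0.314), and without library 11 the ratio at 4 dpi was 0.39 (adjusted p = 0.145, edgeR).

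VIM was not called in this comparison. At 1 dpi it was at 15.6 against 19.2, 9.53 against 34.9 and 19.9 against 18.4 in libraries 6, 7 and 8 (log2 -0.66, 95% interval -1.19 to -0.13, lower in 2 of 3 libraries, adjusted p = 0.202, edgeR). Without library 7 the log2 ratio was -0.12, and with unthinned classes it was -0.10. At 4 dpi it was at 95.6 against 81.9 and at 74.4 against 127 in libraries 10 and 11, which went in opposite directions (log2 -0.27, 95% interval -0.74 to 0.20, adjusted p = 0.452, edgeR). ITGB1 had log2 ratios of 0.08 (-0.08 to 0.24) and 0.24 (0.04 to 0.44, adjusted p = 0.0921, edgeR), higher in all 5 libraries. It was called at 4 dpi with classes at 10000 UMIs (log2 0.41, adjusted p = 0.0183, edgeR).

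ZEB1 had a log2 ratio of 0.13 at 1 dpi (95% interval -0.32 to 0.58). At 4 dpi it was lower in the cells with more epithelial UMIs, at 7.65 against 14.6 in library 10 and 9.65 against 20.8 in library 11 (log2 -1.02, 95% interval -1.71 to -0.33, adjusted p = 0.034, edgeR). That call was lost without library 10 (log2 -1.11, adjusted p = 0.148), without library 11 (-0.96, adjusted p = 0.293) and with classes at 10000 UMIs, where the ratio was -0.24 (adjusted p = 0.685, all edgeR). The difference of the ratios between the time points was called for 0 of the 4 mesenchymal members (edgeR; ZEB1 had an unadjusted p under 0.05, at -1.16, SE 0.40; DESeq2 0).

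The background of these comparisons was 1.91% of 11796 genes called at 1 dpi (225 genes), 18.0% at 4 dpi (2118 genes) and 4.81% for the difference between time points (567 genes). These counts fell when a library was left out: at 1 dpi to 60, 66 and 58 without libraries 6, 7 and 8, at 4 dpi to 884 and 599 without libraries 10 and 11, and for the difference to 295, 202 and 198 without libraries 7, 10 and 11. At 4 dpi the cells with more epithelial UMIs were higher in 9 of the 16 tested mesenchymal and matrix genes and lower in 2, with a median log2 ratio of 0.46 against 0.03 over all genes. Those higher included TAGLN, TAGLN2, CALD1 and TPM1, which encode actin-binding proteins, and CD44, and the 2 lower were COL1A1 and AXL. With DESeq2, 1 of these 16 was called, and 18 of the 100 list genes against 43 with edgeR. Over all 11796 genes DESeq2 called 676 and edgeR 2118. Of the transcription factors, SNAI1 (log2 -1.42, SE 0.32) and SNAI2 (-0.49, SE 0.16) were lower and TCF3 (0.67, SE 0.21) was higher.

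Of the integrins and actin linkers, 11 of 31 were higher at 4 dpi and 1, FERMT2, was lower, with ACTG1 (log2 0.83, SE 0.09), ACTB (0.75, SE 0.09), both cytoplasmic actins, and ITGB4 (0.94, SE 0.12), the integrin of hemidesmosomes, among the first. Of the other epithelial junction genes, 6 of 27 were higher at 1 dpi, and 7 were higher and 1, PARD6B, lower at 4 dpi, with DSG2, a desmosomal cadherin, in both (log2 0.52 and 0.66). DESeq2 called 0 and 4 of the 27, with an unadjusted p under 0.05 for 7 and 8. Over all 11796 genes it called 29 and 676. Of the epithelial regulators, 3 of 21 were higher at 1 dpi, and 7 were higher and 2, GRHL1 and KLF5, lower at 4 dpi. The named rises and falls over all genes at 4 dpi were of genes with few UMIs. CNTN1 was at 8.28 against 0 and 10.3 against 1.27 normalized CPM in libraries 10 and 11, PCK1 at 12.1 against 2.09 and 7.58 against 0.42 and BEST3 at 7.01 against 0.42 and 8.96 against 1.70. PTPN22 was at 0 against 5.43 and 7.20, ITGAM at 0 against 2.93 and 2.97, and TBX2 at 0.64 against 8.36 and 0 against 22.9. DESeq2 gave none of these 6 an adjusted p. Without library 11, 5 of the 6 were no longer called (edgeR; CNTN1 was), and without library 10, 4 (CNTN1, PCK1, BEST3 and ITGAM). BEST3 had a log2 ratio of 0.10 with unthinned classes, and PTPN22 of -1.89 with classes at 10000 UMIs.

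Across cells, pairs of members hardly varied together. Spearman's correlation coefficient on thinned UMIs was computed within each library, over 130 to 226 cells, and is given as a description, since the counts are sparse and cells share a library. The median over libraries lay between -0.11 and 0.19 for all pairs. VIM had medians of 0.13 with ZEB1, 0.08 with FLNA and 0.02 with ITGB1, and of -0.05 to 0.06 with the 6 epithelial members. The coefficient of VIM and ZEB1 was 0.17, 0.13 and 0.16 in libraries 6, 10 and 11 and -0.06 in both libraries 7 and 8. The highest medians were between epithelial members, at 0.19 for CDH1 with CLDN4 and 0.19 for CLDN4 with TJP1, and both pairs were above 0 in all 5 libraries.

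**Figure D5:**
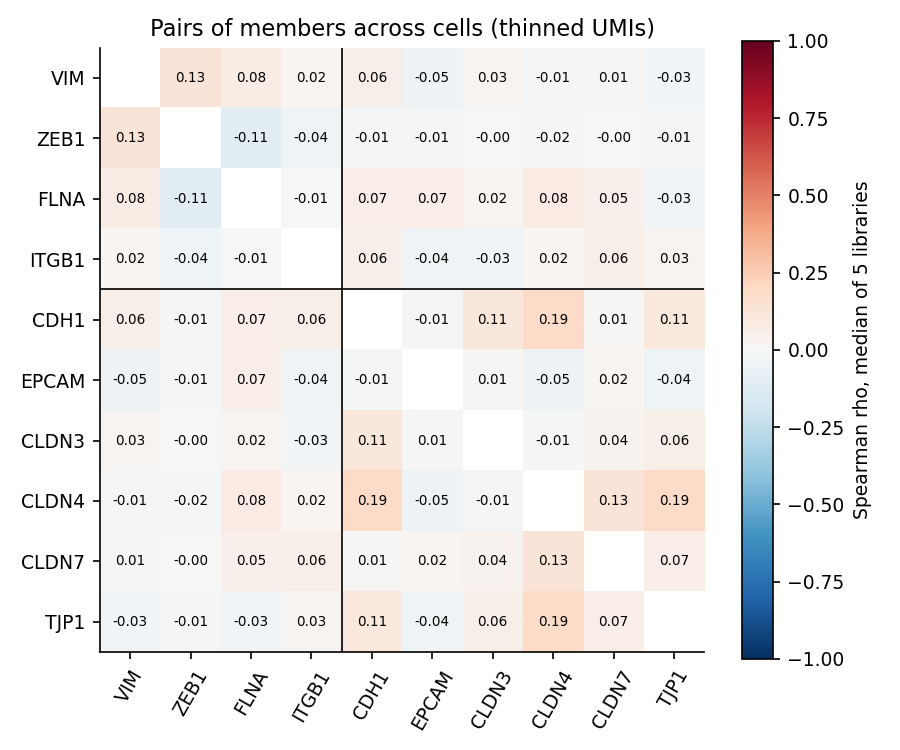
Median over the 5 libraries of Spearman's correlation coefficient across thinned cells for each pair of members, on a color scale from -1 to 1; lines separate mesenchymal from epithelial members. All values lie between -0.11 and 0.19, and the block of VIM with the epithelial members lies between -0.05 and 0.06.

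The genes most like VIM across cells were found among 5561 genes with a UMI in at least 10% of thinned cells of every library, by the mean coefficient over the 5 libraries. They were S100A6 (mean coefficient 0.16, range 0.03 to 0.32), CAV1, which encodes caveolin 1 (0.15, 0.09 to 0.21), UPP1 (0.14, -0.02 to 0.35), TMEM43 (0.13, 0.05 to 0.22) and MAGT1 (0.13, 0.04 to 0.28). Among the members, CDH1 ranked 160th with 0.08, FLNA 485th with 0.05 and EPCAM 3957th with -0.02. ZEB1 was in too few cells to be ranked.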

How the data were processed

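SORT-seq libraries of SW480 cells from zebrafish xenografts were analyzed, 3 plates of 1 dpi and 2 of 4 dpi. The authors took barcodes from the first read, mapped the second to human transcripts with BWA (version not stated; hg38 in the submitters' notes) and deposited unnormalized counts, 1 table of UMIs by gene and well for each plate. The members and all gene lists were chosen with earlier results of these data known.

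Genes listed in all libraries (15323 of 21283) and seen in at least 10 wells were kept, and wells needed more than 2000 genes, counted with the ERCC spike-ins as in the authors' code, and less than 25% mitochondrial UMIs. ERCC were then left out. No doublet caller was run. UMIs were summed per library, or per library and class of cells (at least 10 cells in both classes), and fitted with edgeR 4.0.16 in R 4.3.3 (TMM, filterByExpr, quasi-likelihood test, two-sided, Benjamini-Hochberg over all genes tested, threshold 0.05). Class effects at both time points came from 1 model with the library as a block. For classes, cells were thinned to 5000 UMIs (numpy 2.4.6, seed 1), and shallower cells were left out. VIM, or the 6 epithelial members, were left out of the calls of the class they made. Normalized counts-per-million (CPM) use TMM library sizes.

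Genes were named by rule: the members; up to 3 called rises and 3 called falls with time per list whose libraries did not overlap; the 3 largest rises and falls of each class at 4 dpi with 1 direction in both libraries; and the 5 genes most like VIM. Any other is named for its count or role.

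Alternatives were DESeq2 1.42.0, RLE factors, a term for the flow cell (inferred from the code in the table names), no low-count filter, thinned sums, other classes, other cell filters and each library left out. On simulated data with 200 genes changed by 1.5 (log2), the fit called 93.9% of the changed genes between time points (12375 genes run), 55.1% for the VIM class (11470) and 78.7% for the epithelial class (11523) at 4 dpi. The simulated sums shared 1 profile of genes and a common trend of dispersion, without plate effects or single cells. These shares therefore need not hold for the real libraries. With 3 and 2 libraries, and with depths of 3789632 to 7503665 UMIs, small differences of low genes such as ZEB1 are not detectable.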

Additional observations from a re-analysis of the deposited data

Results flagged for a closer look

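The difference between cells with more and with fewer epithelial UMIs was itself different at 4 and 1 dpi for 11 of the 100 tested genes of the wider lists. This is by the test of that difference (edgeR, adjusted p from 0.00095 to 0.0407), which called 4.81% of all genes. Among the mesenchymal and matrix genes it was 1.75 on the log2 scale (SE 0.40) for TAGLN, with ratios of -0.28 at 1 dpi and 1.47 at 4 dpi, 1.39 (SE 0.35) for NES, 0.49 (SE 0.13) for LGALS1 and -1.71 (SE 0.44) for AXL. Among the actin and integrin genes it was 0.75 (SE 0.15) for ITGB4, 0.63 (SE 0.14) for ACTN1, 0.57 (SE 0.11) for ACTB and 0.56 (SE 0.11) for ACTG1, whose ratios were above 0 at both time points and larger at 4 dpi. Among the regulators it was -1.27 (SE 0.36) for SNAI1, -1.81 (SE 0.31) for GRHL1 and -0.70 (SE 0.12) for KLF5, with ratios near 0 at 1 dpi (-0.15, 0.14 and 0.03) and below 0 at 4 dpi (-1.42, -1.66 and -0.68). DESeq2 called 5 of the 100 list genes tested in this comparison, against 129 of all 11796 genes. With classes at 10000 UMIs 3 of 99 were called, against 442 of all 11643 genes, which is near the share of all genes.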

How the results depend on the processing

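With time, the log2 difference lay between 2.11 and 2.58 for VIM, -0.87 and -0.52 for CDH1 and -0.94 and -0.66 for TJP1 over the 12 other settings. The members were chosen on this contrast, and nothing is read from its calls. The number of genes called with time was 3484 and fell to 1095 with cells thinned to 5000 UMIs, where 8867 genes were tested, and lay between 2352 and 2940 without 1 library. With the VIM class, 22, 28 and 3 genes were called at 1 dpi, at 4 dpi and for their difference. DESeq2 gave 1, 0 and 0, unthinned classes 0, 1 and 0, sums of thinned counts 1, 10 and 0, and no filter on low counts 5 for the difference. Leaving out a library of the VIM class fit left no residual degree of freedom and was not run. With the epithelial class, 225, 2118 and 567 genes became 29, 676 and 129 with DESeq2, 929, 1394 and 284 with unthinned classes and 40, 454 and 89 with sums of thinned counts, and 1255 at 4 dpi with classes at 10000 UMIs. Without 1 library they lay between 58 and 248, between 599 and 2075 and between 198 and 401. The share of cells with a VIM UMI was 17.5%, 23.9%, 14.7%, 43.2% and 34.8% before thinning and 7.52%, 6.43%, 4.38%, 21.5% and 22.0% after it. The cause was not tested.

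Of the members' differences with time under other settings, 98 kept their direction and side of the threshold, 8 fell short of it, 4 passed it and 9 turned sign. By the VIM class 73 kept both and 17 turned sign, and by the epithelial class these were 61 and 5, with 9 that fell short and 3 that passed. Signs turned for members that were not called. With time these were ZEB1 (0.11 with a mitochondrial maximum of 15%, 0.20 without library 8 and 0.18 without library 10, in a range of -0.29 to 0.20), CLDN4 (0.10 with thinned cells, 0.17 with the 15% maximum, 0.20 without library 7 and 0.03 without library 11, in a range of -0.27 to 0.20) and CLDN7 (0.025 with the 15% maximum and 0.033 without library 8, in a range of -0.16 to 0.033). By the VIM class at 1 dpi these were CDH1 (-0.16 with classes at 10000 UMIs and -0.10 with unthinned classes), CLDN4 (-0.31 and -0.48), TJP1 (-0.34 and -0.058, -0.01 without a filter and -0.21 with thinned sums) and CLDN3 (-0.03 without a filter, -0.001 with unthinned classes and -1.27 with thinned sums). At 4 dpi they were ITGB1 (0.14 and 0.22 with classes at 10000 UMIs and unthinned classes), CDH1 (0.74 and 0.44) and CLDN3 (0.11 with unthinned classes and 0.39 with thinned sums). By the epithelial class they were VIM at 4 dpi (0.24 with unthinned classes, 0.059 with thinned sums and 0.20 without library 11, in a range of -0.77 to 0.20 without 1 library), ZEB1 at 1 dpi (-0.024 without library 7, in a range to 0.28) and ITGB1 at 1 dpi (-0.01 with thinned sums). No paired analysis was possible because the libraries of the 2 time points share no replicate number, and the library was already a block in the class comparisons.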
